A study of Rattus norvegicus with 10 samples.

Results

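The 14-3-3 genes Ywhab, Ywhae, Ywhag, Ywhah, Ywhaq and Ywhaz were described in the rat hippocampus by taking every probe set of the array that carried exactly 1 of these 6 gene symbols. This gave 9 probe sets, of 31042 probe sets and 14217 named genes on the array. Messenger RNA was measured on 1 Affymetrix rat genome array per animal in 5 rats of the C-group, which ate solid feed, and 5 rats of the P-group, which ate powdered feed. All were male Wistar rats, acclimatized on powdered feed before groups of equal weight were formed, kept on their diet for 8 days and labeled as 4 weeks old when the hippocampus was taken. The rats are called C1 to C5 and P1 to P5 after their group and replicate number. The labels and the number of rats given for the experiment point to separate animals, with no pooling mentioned.

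The 14-3-3 proteins are small acidic adaptors that form dimers with each other. Each dimer binds phosphorylated serine or threonine motifs in client proteins and can hold a client in the cytosol, block its active site or keep it from being dephosphorylated. The brain is especially rich in them. Their gene symbols stand for the activation of tyrosine and tryptophan hydroxylase, enzymes of catecholamine and serotonin synthesis. The 6 genes lie on 6 chromosomes of the GRCr8 assembly of RefSeq, Ywhab on 3, Ywhae on 10, Ywhag on 12, Ywhah on 14, Ywhaq on 6 and Ywhaz on 7. They encode the beta, epsilon, gamma, eta, theta and zeta isoforms in that order.

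Ywhab and Ywhah were the 2 genes with a probe set that varied among rats, and their promoters are shown because their values carry the results that follow. Each sequence holds the 250 bases before the start of the gene in RefSeq (GRCr8), read 5′ to 3′ on the strand of the gene. Capitals mark matches, on either strand, to the cAMP response element TGACGTCA, its shorter form TGACG (which lies inside it on both strands), the GC box GGGCGG, the CCAAT box CCAAT and the TATA box TATAAA. Ywhab lies on the plus strand at chr3:173078821-173079070 and Ywhah on the minus strand at chr14:81930203-81930452.
Ywhab: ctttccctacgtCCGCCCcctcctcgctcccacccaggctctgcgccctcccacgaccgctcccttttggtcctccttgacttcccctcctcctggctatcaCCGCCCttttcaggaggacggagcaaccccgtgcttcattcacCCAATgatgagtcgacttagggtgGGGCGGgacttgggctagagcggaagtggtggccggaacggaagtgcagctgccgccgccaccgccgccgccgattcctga
Ywhah: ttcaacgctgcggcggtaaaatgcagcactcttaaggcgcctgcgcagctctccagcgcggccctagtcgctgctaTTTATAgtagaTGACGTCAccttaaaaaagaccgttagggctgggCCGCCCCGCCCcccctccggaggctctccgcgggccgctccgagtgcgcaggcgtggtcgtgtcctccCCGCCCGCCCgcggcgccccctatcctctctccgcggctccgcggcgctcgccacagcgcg

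The Ywhab promoter had a GC content of 65.2% and the Ywhah promoter 68.8%, against a median of 51.2% over all 33469 promoters of the table. The Ywhab window held a CCAAT box 105 to 101 bases before the start and 3 GC boxes. The Ywhah window held no CCAAT box, but a complete cAMP response element 163 to 156 bases before the start, a TATA box on the other strand 174 to 169 bases before it, and 4 GC boxes in 2 overlapping pairs. The complete element was in 1.59% of all promoters, the shorter form in 18.2%, the GC box in 30.5%, the CCAAT box in 34.0% and the TATA box in 12.9%. Of the 5 members in the table, which did not list Ywhaz, 1 held the complete element, 3 the shorter form, 5 a GC box, 3 a CCAAT box and 1 a TATA box. These are matches of letters, and whether any factor binds there was not measured.

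Rat C1 stood apart from the other rats on this array set. It had the highest of the 10 values in 1553 and the lowest in 641 of the 2904 probe sets whose standard deviation (SD) over the rats was above 0.01 log2 units. The results for Ywhab and Ywhah are therefore given with and without C1. The 6 marker genes of hippocampal fields on the lists used (among them Prox1 of the dentate gyrus and Wfs1 of field CA1) each had a probe set above the 75th percentile of all levels, at percentiles 80.3 to 97.7. No array reading gives a read depth, and 5 rats per group limit the precision. In tissue RNA, fewer cells of a type and less RNA per cell cannot be told apart.

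The first question was how much the 14-3-3 genes varied at all. Of the 9 probe sets, 2 (22.2%) had an SD above 0.01 over the 10 rats, against 2904 of 31042 (9.36%) on the array. Among the 640 probe sets at or above the lowest mean level of the 9, 146 (22.8%) had such an SD, so the share of the members was near that of equally bright probe sets. The 2 variable members were 1 of the 2 probe sets of Ywhab (1386999_at) and the only probe set of Ywhah (1367693_at), with an SD of 0.30 and 0.35 log2 units. The other 7 were nearly flat, with an SD of 0.00014 to 0.00049, near the median of all probe sets of 0.00022. The values come from a factor model that gives a nearly constant row where the probes of a set do not vary together, so a flat probe set does not show that the transcript was equal in the groups.

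**Figure D1:**
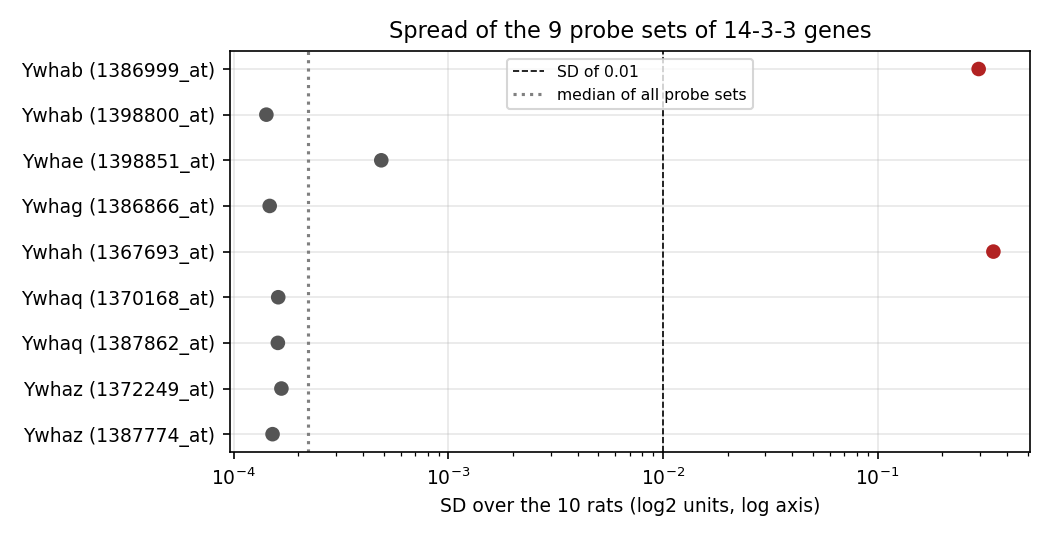
Standard deviation over the 10 rats (log2 units, log axis) for the 9 probe sets, 1 point per probe set. The Ywhab probe set 1386999_at and Ywhah (red) lie at 0.30 and 0.35, while the other 7 (grey) lie between 0.00014 and 0.00049, left of the dashed line at 0.01 and around the dotted median of all probe sets.

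Ywhab, the beta isoform, was higher in the C-group on average. Its variable probe set read 11.34, 11.16, 10.78, 10.80 and 10.78 log2 units in C1 to C5, against 11.17, 10.75, 10.62, 10.37 and 10.65 in P1 to P5. The 2 highest C-group rats, C1 and C2, and the highest P-group rat, P1, stood above all others, while C3, C4 and C5 lay within 0.02 of each other and above the 4 remaining P-group rats. The groups therefore overlapped only through P1, and the C-group rat was the higher one in 21 of the 25 possible pairs.

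The Ywhab means were 10.97 ± 0.26 log2 units in the C-group and 10.71 ± 0.29 in the P-group (SD, n = 5 each). The difference, C-group minus P-group, was 0.26 ± 0.17 (SE), a 1.20-fold higher level, with a 95% interval of -0.13 to 0.65 from limma. Against the spread between rats it did not pass, with an adjusted p of 0.927 by limma (unadjusted p = 0.167) and p = 0.135 by a two-sided exact permutation test over the 252 splits of the rats. Rank products, which ranks the differences between rats of the groups and does not weigh them against the spread within a group, called it higher at a false discovery rate (FDR) of 0.0119, with a threshold of 0.05. The study, from the same arrays, already lists Ywhab as higher in the C-group.

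Of the 9 probe sets, Ywhab was the 1 called by rank products as higher, where 1.997% of all probe sets were (620 of 31042). None was called lower, where 0.416% were (129 of 31042). By limma 0 of the 9 passed an adjusted p of 0.05, as did 0 of the 31042 (0%), where the lowest adjusted p was 0.927. At an unadjusted p under 0.05 limma had 0 of the 9 and 915 of all probe sets (2.95%).

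The Ywhab call was lost without either of 2 rats and under a filter. Calls for higher fell over the whole array too. There were 620 with all rats, 61 without C1, 110 without C2 and 9 without flat probe sets. Without C1 the difference was 0.17 ± 0.16 (SE) with an FDR of 0.0648, and without C2 it was 0.21 ± 0.19 with an FDR of 0.0568, so the call was lost in both. Without P4, the lowest rat, the difference was 0.17 and the FDR 0.0405. The largest difference came without P1, at 0.37 ± 0.15 with an FDR of 0.00235 and an adjusted p of 0.805 by limma. Over all 10 sets of 9 rats the difference was positive and the call was kept in 8. When the flat probe sets with an SD of 0.01 or less were left out, the FDR was 0.930 at the same difference.

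**Figure D2:**
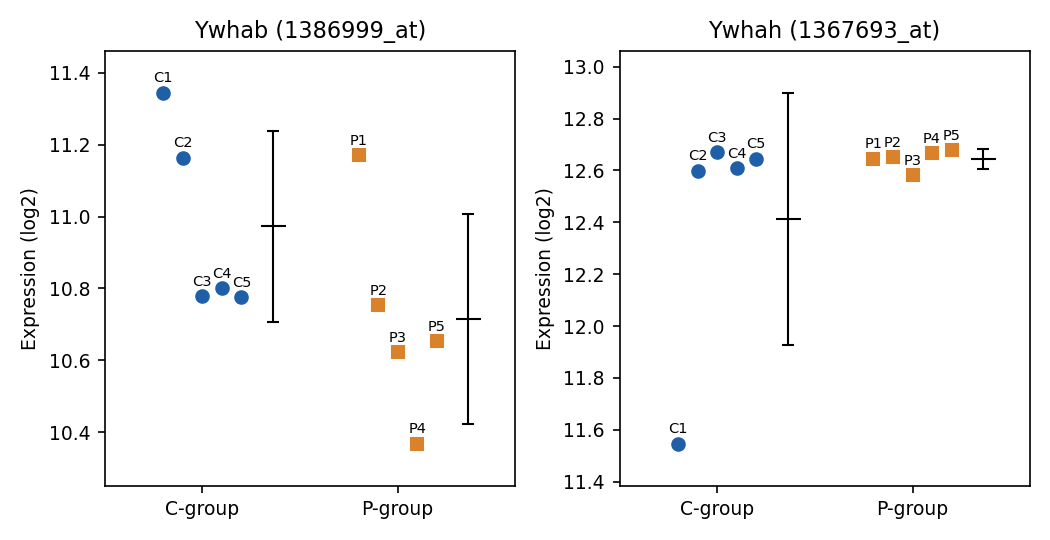
Expression (log2) of Ywhab and Ywhah in each rat, with C-group rats as circles on the left and P-group rats as squares on the right, and the group mean ± SD as a bar beside them (n = 5 each). For Ywhab the rats C1, C2 and P1 lie above the rest, and for Ywhah 9 rats lie between 12.58 and 12.68 with C1 at 11.55.

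The other Ywhab probe set, 1398800_at, was nearly flat at 12.40 log2 units, with a range over the rats of 0.00047 and a difference of 3.5e-05. Its deviations, though minute, tended to follow those of 1386999_at. Pearson's r between the probe sets was 0.82 over the 10 rats (permutation p = 0.00431, adjusted 0.0140 over the 13 relations computed), and 0.84 without C1 and P4. Spearman's rho was 0.61 (permutation p = 0.0668, adjusted 0.174). Both probe sets had their highest value in C1, and without C1 alone r was 0.70.

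Ywhah, the eta isoform, differed in 1 rat. Its probe set read 11.55, 12.60, 12.67, 12.61 and 12.65 log2 units in C1 to C5, against 12.65, 12.65, 12.58, 12.67 and 12.68 in P1 to P5. C1 lay 1.04 log2 units below the next rat, 2.13-fold below the mean of the other 9, whose values spanned 0.09. The other 4 C-group rats, at 12.63 ± 0.03 (SD), lay inside the range of the P-group, at 12.64 ± 0.04 (SD, n = 5).

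With all rats the Ywhah means were 12.41 ± 0.49 in the C-group and 12.64 ± 0.04 in the P-group (SD, n = 5 each), a difference of -0.23 ± 0.21 (SE) with a 95% interval of -0.71 to 0.25 from limma. It passed neither limma (adjusted p = 0.927) nor the two-sided exact permutation test (p = 0.294) nor rank products (FDR for lower 0.106). Without C1 the difference was -0.01 with an FDR of 0.478. Without C3, with C1 still in, rank products called Ywhah lower at an FDR of 0.0257.

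**Figure D3:**
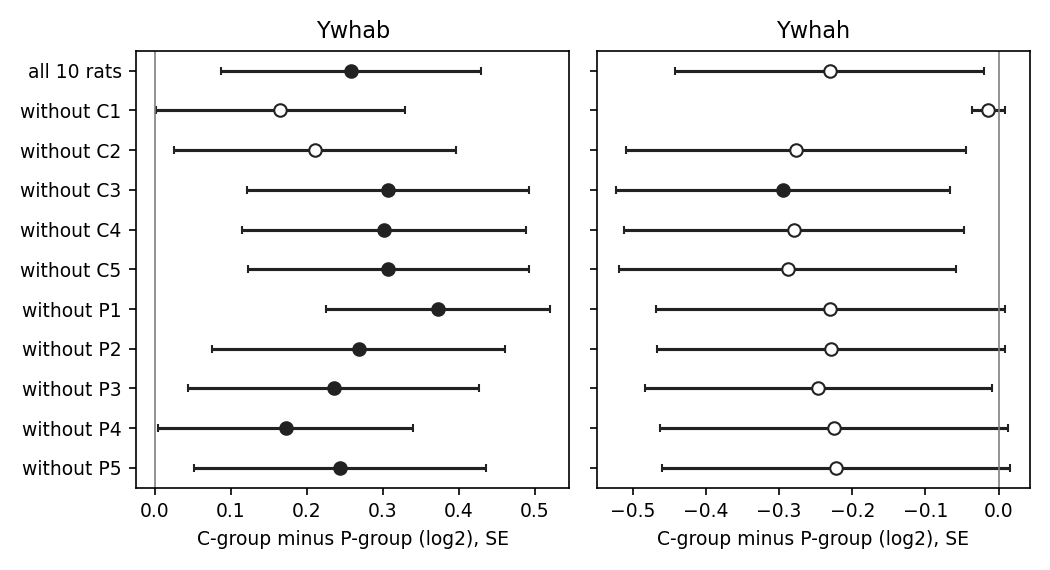
Difference between the groups (C-group minus P-group, log2) for Ywhab and Ywhah with all 10 rats and with each rat left out, with the limma standard error as the bar. Filled points passed rank products at an FDR of 0.05 (higher for Ywhab, lower for Ywhah); Ywhab keeps its direction at 0.17 to 0.37, and Ywhah lies at -0.01 without C1.

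The remaining genes are described by their flat probe sets. Ywhae, the epsilon isoform, whose human gene is lost in the Miller-Dieker form of lissencephaly, had the widest range of the 7, 0.0018 log2 units, and a difference of -0.00017. Ywhag, the gamma isoform, mutated in a human developmental epilepsy, had a range of 0.00043 and a difference of -9.2e-05. Ywhaq, the theta isoform, had differences of -0.00015 and 3.2e-05 at its 2 probe sets, and Ywhaz, the zeta isoform, -9.9e-05 and 4.7e-06. Counting the flat Ywhab probe set, 3 of the 7 differences were positive and 4 negative, the groups overlapped in all 7, the adjusted p-values by limma lay between 0.927 and 0.995, and the lowest FDR by rank products was 0.980. The median difference over the 9 probe sets was -9.2e-05, beside 2.8e-05 over all 31042.

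Between the 2 probe sets of Ywhaq, and between those of Ywhaz, no relation was detectable. Their r was -0.50 for Ywhaq (permutation p = 0.149, adjusted 0.216, n = 10) and -0.24 for Ywhaz (permutation p = 0.482, adjusted 0.482, n = 10). Without C1 and C2 the r of Ywhaq was 0.23, and that of Ywhaz was -0.06 without C1 and P4 and -0.58 without P3. All 4 probe sets varied by less than 0.001 log2 units.

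No relation between Ywhab and Ywhah was detectable. C1 was the highest rat for Ywhab and the lowest for Ywhah. Over the other 9 rats r was -0.30 (exact permutation p = 0.430, adjusted 0.465) and rho was -0.25 (exact permutation p = 0.521, adjusted 0.615), and r was -0.38 with C2 and P3 also left out.

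The genes most like Ywhab were sought by Pearson's r over the 10 rats, among 2041 variable probe sets with 1 other symbol. The closest were Kcnma1, the large-conductance calcium-activated potassium channel, with r = 0.99 and rho = 0.92, Pik3ca, a catalytic subunit of phosphoinositide kinase, with r = 0.98 and rho = 0.94, and Prrc2c, a proline-rich coiled-coil protein, with r = 0.97 and rho = 0.95. All 3 were again high in C1, C2 and P1 and low in P4. Kcnma1 read 7.84, 7.58, 7.21, 7.20 and 7.17 in C1 to C5, against 7.66, 7.25, 7.09, 6.92 and 7.11 in P1 to P5.

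These likenesses did not rest on C1, since r without it was 0.98 for Kcnma1, 0.98 for Pik3ca and 0.96 for Prrc2c. Their own differences were 0.19 ± 0.18 for Kcnma1, 0.15 ± 0.11 for Pik3ca and 0.35 ± 0.25 for Prrc2c (SE), with an FDR for higher of 0.0396, 0.0646 and 0.00387 in that order and an adjusted p of 0.927 by limma for each. Unlike the likenesses, these differences moved with C1, and without it they were 0.08 for Kcnma1, 0.08 for Pik3ca and 0.22 for Prrc2c, with an FDR of 0.176, 0.209 and 0.0441. In all, 121 of the 2041 probe sets had an r above 0.9 with Ywhab, and 65 of these kept an r above 0.9 without C1. The 10 points share the arrays and their normalization, and the rows are those that varied most, so no test was made of these values.

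**Figure D4:**
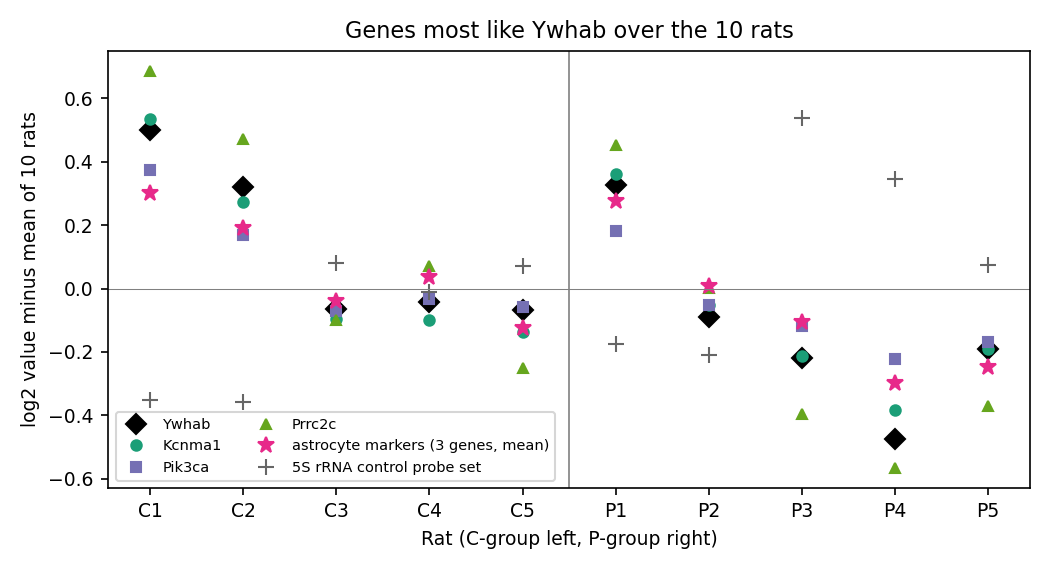
Deviation of each rat from the mean of the 10 rats (log2 units) for Ywhab, the 3 genes most like it, the mean of 3 astrocyte marker genes and the 5S ribosomal RNA control probe set, with C-group rats left and P-group rats right of the line. Ywhab and the 3 genes are high in C1, C2 and P1 and lowest in P4, and the 5S control is lowest in C1 and C2 and highest in P3 and P4.

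Ywhab was set against 4 cell type lists, 3 control readings and the mean deviation of the arrays. No correlation with Ywhab was computed for the other cell type lists, so the values do not single out a cell type. Among those, the oligodendrocyte mean was lowest in C1, P1 and C2, at -0.24, -0.21 and -0.14, where Ywhab was highest. It ran from -0.03 to 0.19 log2 units in the other rats. Means of the variable astrocyte and neuron markers moved with Ywhab at an adjusted permutation p under 0.05, for both r and rho. The mean deviation of the arrays did so for r alone. The 5S ribosomal RNA control was related inversely, also at an adjusted permutation p under 0.05 for r alone. The relations to marker and control values were chosen after the values were seen, and the adjustment over 13 relations does not cover that choice. Here too the 10 points share the arrays and their normalization. The mean of the 3 of 5 astrocyte markers that varied (Gfap, Aqp4 and Slc1a3) had an r of 0.95 with it (permutation p = 6.0e-05, adjusted 0.00078, n = 10) and a rho of 0.92 (adjusted p = 0.00793 by permutation), and r was 0.90 without C1 and P1. This mean ran from -0.12 to 0.30 log2 units around its average in the C-group and from -0.30 to 0.28 in the P-group. Rank products called 2 of the 5 astrocyte genes higher, at 2 of 10 probe sets. Over all probe sets, most of them flat, 1.997% were called higher. The 2 genes were Aqp4, the astrocyte water channel (difference 0.32 ± 0.32, SE), and Slc1a3, a glutamate transporter (0.27 ± 0.16). Gfap, the astrocyte filament protein, differed by -0.15 ± 0.16. Without C1 the differences were 0.12 for Aqp4, 0.13 for Slc1a3 and 0.01 for Gfap, and 0 of the 5 genes were called. Over the array, 61 of 31042 probe sets were then called higher and 164 lower. Gfap went the other way in C1, where Ywhab was highest, and read 10.71 there and 11.42 to 11.59 in the other rats.

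The mean of the 4 of 8 neuron markers that varied, Syt1 of synaptic vesicles, Map2 of dendrites, Nefl of axons and Stmn2 of growing neurites, had an r of 0.88 with Ywhab (permutation p = 0.00026, adjusted 0.00169), a rho of 0.88 (adjusted p = 0.0109 by permutation) and an r of 0.78 without C1 and P1. It ran from -0.06 to 0.41 in the C-group and from -0.16 to 0.13 in the P-group. Rank products called 2 of the 8 genes higher, Map2 and Nefl, at 2 of 13 probe sets, and 0 of the 8 without C1. Over all probe sets, most of them flat, 1.997% were called higher with all rats, and 61 of 31042 without C1. The 5S ribosomal RNA control ran the other way, with r = -0.82 (permutation p = 0.00379, adjusted 0.0140), rho = -0.77 (adjusted p = 0.0549 by permutation) and r = -0.88 without C2 and P3. It read 7.33, 7.33, 7.76, 7.67 and 7.76 log2 units in C1 to C5, against 7.51, 7.47, 8.22, 8.03 and 7.76 in P1 to P5. The 5′ actin control had an r of -0.45 with Ywhab (permutation p = 0.193, adjusted 0.251), a rho of -0.35 (adjusted p = 0.430 by permutation) and an r of -0.75 without C3 and C4. The mean of the 13 spike-in probe sets had an r of 0.50 (permutation p = 0.134, adjusted 0.216), a rho of 0.36 (adjusted p = 0.430 by permutation) and an r of 0.17 without C1 and C4. The part of these markers and of the control in the Ywhab values was not tested.

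The mean deviation of an array over all variable probe sets had an r of 0.73 with Ywhab (permutation p = 0.0161, adjusted 0.0350), a rho of 0.56 (adjusted p = 0.210 by permutation) and an r of 0.57 without C1 and P5. Choroid plexus markers, such as Enpp2, the secreted enzyme autotaxin (difference 0.61 ± 0.47, SE), separated the rats by much more. They ran from -1.05 to 1.57 in the C-group and from -1.25 to 1.09 in the P-group. Of 12 measured genes 11 were called higher, at 14 of 18 probe sets (1.997% of all probe sets). Without C1, where 61 probe sets in all were called higher instead of 620, 5 of the 12 were called, and without flat probe sets 3 of the 12 among 9 calls in all. With Ywhab they had an r of 0.32 (permutation p = 0.365, adjusted 0.432), a rho of 0.03 (adjusted p = 0.946 by permutation) and an r of 0.04 without C1 and C5. Meninges markers had an r of 0.51 (permutation p = 0.135, adjusted 0.216), a rho of 0.49 (adjusted p = 0.288 by permutation) and an r of 0.11 without C1 and C2. Pineal and photoreceptor markers stood at 2.35 in P2 and between -0.30 and -0.20 in the other rats, and without P2 the Ywhab difference was 0.27 with an FDR of 0.0129.

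The probe sets most like Ywhah owed their likeness to C1. The closest were Atp1b1, the beta subunit of the sodium pump, with r = 0.997 and rho = 0.77, Ube2k, a ubiquitin-conjugating enzyme, with r = 0.996 and rho = 0.64, and Rspry1, a protein with RING and SPRY domains, with r = 0.995 and rho = 0.82. Without C1 these r values were 0.65, 0.62 and 0.67 in the same order. Of 237 probe sets with an r above 0.9 over the 10 rats, 0 kept it without C1, and their median r was then 0.25. Atp1b1 read 10.996 in C1 and 12.40 to 12.56 in the other rats, and of the 3 it was the 1 called lower by rank products (FDR 0.0289, difference -0.33 ± 0.29, SE, adjusted p = 0.927 by limma). Without C1 its difference was -0.03 with an FDR of 0.204.

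A low reading in C1 was also seen at 1 probe set for a bacterial control RNA, but not at the other spike-in probe sets. Such RNA is added to the sample and does not come from the rat. The BioB-M spike-in probe set read 7.04 log2 units in C1 and 8.23 to 8.64 in the other 9 rats. Its redesigned counterpart, made for the same bacterial RNA, read 8.67 in C1 and 8.22 to 8.59 in the others, and all 13 spike-in probe sets that varied besides BioB-M, this one among them, had their highest value in C1. In 402 of the 2904 variable probe sets (13.8%), Ywhah among them, C1 lay below the other rats by more than their whole range, and in 80 of the 2904 it lay at least 1 log2 unit below the next rat. In 181 (6.23%) C1 lay above the other rats by more than their range. Whether the Ywhah reading of C1 has the same source as that of BioB-M was not tested, and no other probe set of Ywhah was measured.

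**Figure D5:**
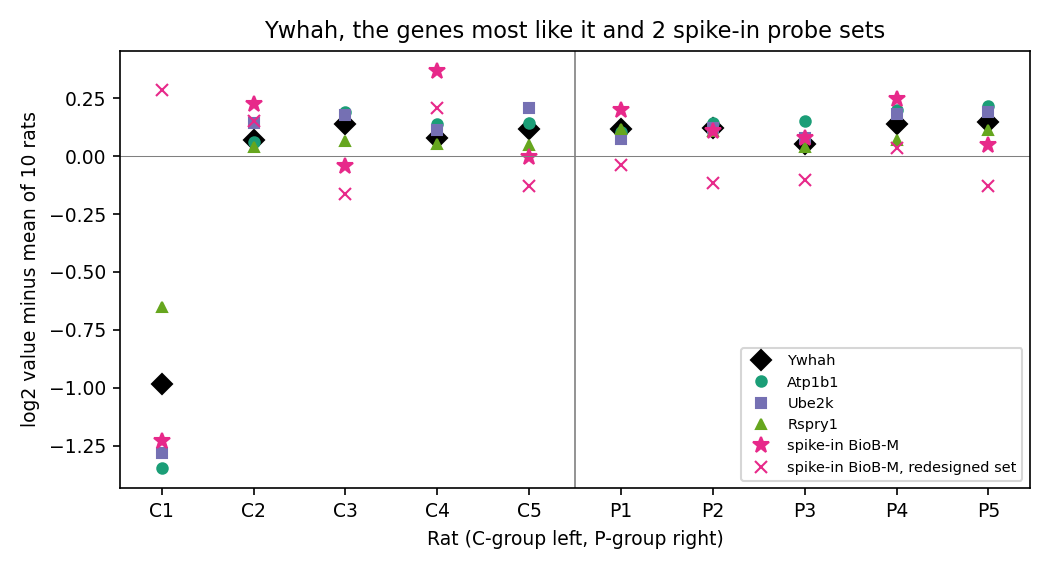
Deviation of each rat from the mean of the 10 rats (log2 units) for Ywhah, the 3 genes most like it and 2 spike-in probe sets of the same bacterial RNA, with C-group rats left and P-group rats right of the line. Ywhah, the 3 genes and BioB-M are low in C1 alone, and the redesigned BioB-M probe set is highest there.

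Genes that work with the 14-3-3 proteins were counted from lists. Sfn, the sigma isoform of epithelia and the seventh gene of the family, had 1 probe set, which was flat. Of 39 genes for client proteins, 31 were measured on 59 probe sets, 6 of them with a variable probe set, and rank products called 0 higher and 1 lower, where 1.997% and 0.416% of all probe sets were. That gene was Larp1, which binds messenger RNAs of ribosomal proteins. It differed by -0.37 ± 0.31 (SE), read 7.15 in C1 and 8.65 to 8.92 in the other rats, and differed by -0.05 without C1. Among the other clients, Ksr1, a scaffold of the MAP kinase cascade, differed by -0.15 ± 0.11, and Hdac5, a histone deacetylase that 14-3-3 proteins hold in the cytosol, by 0.05 ± 0.06. Without C1 these were -0.05 for Ksr1 and 0.003 for Hdac5, and 0 of the 31 genes were called. Over the array, 61 of 31042 probe sets were then called higher and 164 lower.

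Of 21 genes for kinases that phosphorylate 14-3-3 binding motifs, 19 were measured on 34 probe sets, 3 of them variable, and 0 were called higher and 1 lower, beside 1.997% and 0.416% of all probe sets. This was Prkaa1, a catalytic subunit of AMP-activated kinase, at -0.36 ± 0.34 (SE), with 7.19 in C1 and 8.78 to 9.09 in the others. Without C1 its difference was -0.01, and 0 of the 19 genes were called. Over the array, 61 of 31042 probe sets were then called higher and 164 lower. Camk2a, the calcium/calmodulin kinase of excitatory synapses, differed by 0.15 ± 0.17 and Prkacb, a catalytic subunit of protein kinase A, by 0.06 ± 0.09, and neither was called.

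Of the 9 genes of the ERK5 cascade, a MAP kinase route to the Mef2 transcription factors, 8 were measured on 23 probe sets, and 3 were called higher and 0 lower, at 3 probe sets, beside 1.997% and 0.416% of all probe sets. The study itself names this cascade from the same arrays, with these 3 genes and Ywhab as higher in the C-group. Neither the count nor the relation to Ywhab is therefore independent evidence. Crebbp, a coactivator of CREB, was higher by 0.27 ± 0.17 and Mef2c by 0.27 ± 0.24 (SE). Mef2a was called at another of its 4 probe sets than the most variable one, which differed by 0.09 ± 0.11. Without C1 the differences were 0.17 for Crebbp, 0.24 for Mef2c and 0.03 for that Mef2a probe set, and 0 of the 8 genes were called. Over the array, 61 of 31042 probe sets were then called higher and 164 lower. The mean of the 3 variable genes had an r of 0.77 with Ywhab (permutation p = 0.00929, adjusted 0.0242), a rho of 0.75 (adjusted p = 0.0573 by permutation) and an r of 0.72 without P4 and P5. The median differences of the 3 lists were 2.5e-05 for the clients, 1.9e-05 for the kinases and 0.00016 for the ERK5 cascade, beside 2.8e-05 over all probe sets, and flat probe sets make up most of each. Over the variable genes alone the medians were 0.0077, 0.06 and 0.27 in that order, beside 0.06 over all 1789 variable genes. limma called 0 genes in each list.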

How the data were processed

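The authors extracted hippocampal RNA, hybridized 1 array per rat and processed the scans with qFARMS in R (quantile normalization, then a factor model per probe set). They deposited log2 values, which were used here as given. The scanner files were not used here. Gene names came from the platform annotation, and all 9 gene identifiers matched RefSeq (GRCr8). The promoters came from RefSeq.

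The 6 genes and all lists were chosen with earlier results of these data known, and the relations to marker and control values were chosen after the values were seen. All fits ran over the 31042 probe sets that were not controls. Rank products, the method named by the study, used the 25 unpaired differences and 100 permutations within arrays (scipy 1.17.1, numpy 2.4.6 and pandas 2.3.3 under Python 3.11.15), with a threshold of 0.05. The study states neither the pairing nor the number of permutations. limma 3.58.1 (R 4.3.3; lmFit and eBayes, Benjamini-Hochberg) gave standard errors and adjusted p-values. Correlations had 100000 resamples, or every pairing for 9 rats, and Benjamini-Hochberg adjustment over 13 relations. The scripts were tested on simulated data.

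Named were all 6 genes at every probe set, the 3 genes most like each variable one, and up to 3 genes of a list by smallest limma p. Outside this rule, all variable neuron markers were named, and Prox1 and Wfs1 as examples of the hippocampal list. Levels were not compared between probe sets, except for the level percentiles of hippocampal markers and the choice of equally bright probe sets. Alternatives changed the rats used, the normalization, the filter, the pairing, the random draw, the variance model and the statistic.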

Additional observations from a re-analysis of the deposited data

Results flagged for a closer look

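The Ywhah value of rat C1, 11.547 log2 units, stood apart from the other C-group rats. Its gap to the nearest of them was 0.938 of the range of the group, above Dixon's critical value of 0.71 for 5 samples, which chance passes in about 5% of groups. Ywhab in the C-group (0.318) and in the P-group (0.520) and Ywhah in the P-group (0.672) stayed below it.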

How the results depend on the processing

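The Ywhab difference was positive under all 16 alternatives and its adjusted p by limma lay between 0.254 and 0.999. The replicate block and the filters of probe sets cannot change the difference itself, so their sign was fixed in advance. Leaving out single rats gave 0.17 to 0.37 and 0 to 2 of the 9 probe sets called by rank products, against 1 with all rats. When the probe sets with an SD of 0.01 or less were left out, 0 of the 9 were called and Ywhab, still at 0.26, had an FDR of 0.930 among 2904 probe sets. With probe sets below the median level left out, its FDR was 0.0375. Taking same-numbered rats as pairs (a replicate block) called 2 of the 9, Ywhab (FDR 0.00284) and Ywhah (FDR for lower 0.0211), and 912 higher and 338 lower in all. Same-numbered rats had r from -0.39 to 0.48, above 0.1 in 3 of 5 pairs, and 2 of 5 C-group rats ran best with their own number, so the numbers were not taken to pair the rats. The median of the 25 differences was 0.17 for Ywhab and -0.04 for Ywhah. limma called 0 of the 9 under every setting, centred and quantile-normalized values included.

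Over all probe sets, 620 were called higher and 129 lower with all rats. Without C1 these were 61 and 164, without C2 110 and 112, without C3 500 and 221, without C4 234 and 132, without C5 443 and 185, without P1 789 and 82, without P2 521 and 21, without P3 699 and 49, without P4 409 and 10, and without P5 323 and 29. Without dim probe sets they were 157 and 37, and without flat ones 9 and 0. At an unadjusted p under 0.05 limma had 50 probe sets on centred and 1787 on quantile-normalized arrays, against 915. The cause of these changes was not tested. None of the 6 genes had more than 1 variable probe set, so agreement between variable probe sets of a gene had no value and the flat ones were used. Without C1 the r of the Ywhaq pair was 0.09. The values of the flat probe sets cannot show a difference, and the scanner files were not summarized again.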
